A study of Mus musculus with 17 samples.

Results

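The proteasome is the protein-degrading machine of the cytosol and nucleus. Its 20S core is a barrel of alpha-ring subunits (Psma genes) around beta-ring subunits (Psmb genes), of which Psmb5, Psmb6 and Psmb7 encode the catalytic ones. The 19S cap recognises and unfolds ubiquitinated proteins with a ring of ATPases (Psmc genes) and a set of non-ATPase subunits (most Psmd genes). Activators (Psme genes), an inhibitor (Psmf1) and assembly chaperones (Psmg genes) act on the core. In macrophages the proteasome also produces peptides for antigen presentation, and the alternative catalytic subunits Psmb8, Psmb9 and Psmb10 form the immunoproteasome, which inflammatory signals are known to induce. The genes described here are the protein-coding models whose symbol begins with Psma, Psmb, Psmc, Psmd, Psme, Psmf or Psmg and a digit, without the immunoproteasome subunits. They are 47 of the 24453 gene models measured, from 50 matching symbols. They comprise 8 alpha-ring, 8 beta-ring, 6 ATPase and 14 non-ATPase genes, 5 activators, 1 inhibitor and 4 assembly chaperones. The last one, Psmc3ip, encodes a protein of meiotic recombination that is no proteasome subunit and shares only the name. The non-ATPase class goes by the name Psmd, so it also holds assembly chaperones of the 19S base such as Psmd5 and Psmd9.

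PolyA RNA-seq of 13 mouse macrophage libraries was analysed. Of these, 8 come from iBMDMs, macrophages grown from C57Bl/6EiJ bone marrow and immortalised with BRAF(V600E) and Myc, with 2 libraries each of a scramble control (Scramble, titled zsGreen), Atf3KO, JunKO and JunDKO cells, all given vehicle. The knockouts were made by Cas9 with a lentivirus carrying a pair of guides per target and sorted on a viral reporter. Whether clones were picked afterwards is not given in the sources used here. The other 5 are thioglycollate-elicited macrophages (TGEMs), primary cells flushed from the peritoneum of 8-week-old male mice, which were kept in vehicle (PBS) or stimulated through TLR4 with KLA (Kdo2 lipid A) for 1 h. There is 1 library of each treatment from C57Bl/6EiJ mice, whereas Balb/cJ mice gave 1 with vehicle and 2 with KLA. Nothing in the labels says that replicates came from separate cultures or animals, so p-values measure the spread between libraries only.

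Depth ran from 1553297 to 18444447 reads, of which 74.1% to 86.4% were exonic. Fewer gene models had any read in Atf3KO (10425 and 10631) than in the remaining iBMDM libraries (11884 to 12533). The authors report that they checked the efficiency of the knockouts by western blot, which measures protein. In these RNA libraries the transcript of the targeted gene was no check of the knockout labels. The libraries labelled Atf3KO had more Atf3 RNA (154 and 169 RPKM) than Scramble (80.7 and 77.4 RPKM). JunKO had 26.2 and 20.5 RPKM of Jun (Scramble 17.6 and 18.5) and JunDKO 6.94 and 6.07 RPKM of Jund (Scramble 9.19 and 8.33). A direction given below for Atf3KO is that of the libraries so labelled. RPKM is the read number divided by exon length and by library depth. All libraries are labelled male, but the TGEM libraries held 863 to 8676 reads of Xist, a transcript of female cells, against 0 to 3 in iBMDMs. All 8 macrophage markers examined were at or above 1 RPKM in every library.

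Although a few members, described below, were nearly silent, proteasome genes as a group were well expressed in every library. Their summed level was 2997 to 3456 RPKM in the iBMDM libraries and 1693 to 2097 RPKM in the TGEM libraries, and these ranges did not overlap. The group took 0.481% to 0.584% of exonic reads in iBMDMs and 0.300% to 0.347% in TGEMs. Within a class, levels per exonic length differed widely over the 13 libraries. Among the alpha ring Psma6 was highest at a mean of 115 RPKM and Psma3 lowest of those tested at 4.35 RPKM, among the beta ring Psmb6 was highest at 129.9 RPKM and Psmb3 lowest at 26.1 RPKM, and among the ATPases the span was narrow, from Psmc3 at 78.9 RPKM to Psmc6 at 54.98 RPKM. The non-ATPase Psmd8, a subunit of the lid, stood above the others at 260.1 RPKM, whereas Psmd9, an assembly chaperone of the base, had 7.61 RPKM. The activators ran from Psme1 at 83.5 RPKM to Psme4 at 15.2 RPKM and the assembly chaperones from Psmg4 at 19.2 RPKM to Psmg1 at 14.4 RPKM. Psmf1 had 6.88 RPKM and Psmc3ip 4.35 RPKM. These means pool both kinds of cell, and the order was not the same in each. In iBMDMs Psmb4 (137.7 RPKM) was the highest beta-ring gene and Psmb6 (106.7 RPKM) came after Psmb1 and Psmb7 too, while in TGEMs Psmb6 led with 167 RPKM. In TGEMs Psma7 (56.5 RPKM) was above Psma6 (49.4 RPKM), and Psmc1, Psme2 and Psmg3 were the lowest of their classes at 27.1, 7.55 and 5.61 RPKM. Neighbours in these orders were not tested against each other. Psma3 was measured on a gene model with a long last exon.

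The tissue-restricted core subunits were nearly silent. Psma8, the alpha subunit of the testis, had 0 reads in all 8 iBMDM libraries, which allows up to 0.046 RPKM over the group by a limit of 3 reads. In TGEMs it had 2, 6, 8, 20 and 27 reads, or 0.507 to 1.41 RPKM. Psmb11, the beta subunit of the thymus, had 0 reads in all 13 libraries, which allows up to 0.00889 RPKM. These limits cover counting error only. The remaining 45 genes had a mean of at least 1 RPKM and were tested in each comparison.

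Psme2 and Psme2b need to be read together. Psme2 on chromosome 14 (11 exons) and Psme2b on chromosome 11 (a copy in 1 exon) share 99.3% of 718 aligned transcript bases, with 5 differing. A stretch of coding sequence that holds 2 of these differences is shown to make clear how few bases tell their reads apart, with the differing bases in capitals (GRCm38.p6, both genes on the minus strand).
Psme2, chr14:55588040-55588094: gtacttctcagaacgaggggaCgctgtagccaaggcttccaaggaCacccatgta
Psme2b, chr11:48945567-48945621: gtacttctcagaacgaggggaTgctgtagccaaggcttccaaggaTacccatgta
Of all 50-base windows of the Psme2 transcript, 62.2% also occur in Psme2b, and how reads with several equal matches were counted is not given in the sources used here.

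**Figure D1:**
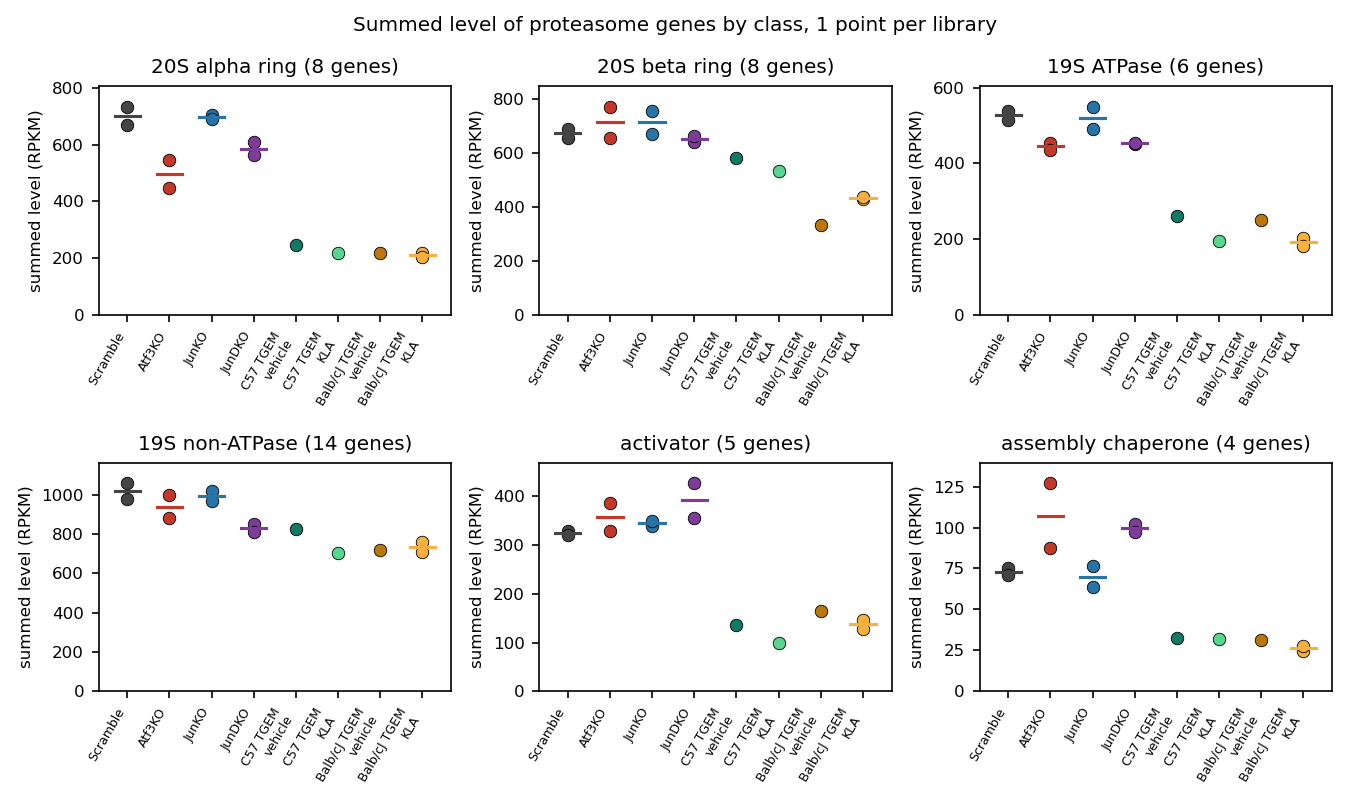
Summed level (RPKM, vertical axis from 0) of the genes of 6 proteasome classes in each of 13 libraries (points; the line is the mean of groups of 2). The TGEM libraries lie below all iBMDM libraries in every class except the 19S non-ATPases, whose highest TGEM library (827.5 RPKM) lies above the lowest iBMDM library (807.9 RPKM).

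The largest difference lay between primary and immortalised macrophages, compared here in cells of the same strain without KLA. Of the 45 tested proteasome genes, 31 were lower in C57Bl/6EiJ vehicle TGEMs than in Scramble iBMDMs and 1 was higher (limma-trend on log2(RPKM + 1), two-sided, Benjamini-Hochberg adjusted p under 0.05 over 10929 genes). This is 68.9% lower against 30.2% of all tested genes, and 2.22% higher against 16.1%. The median log2 fold change of the 45 genes was -1.14, beside -0.28 for all genes. With a change of at least 2-fold and 16 RPKM in either group also asked for, 25 genes (55.6%) were lower, against 13.2% of all genes, and 1 was higher, against 7.89%. The C57Bl/6EiJ vehicle arm is 1 library, and without it, when the contrast rests on the KLA and Balb/cJ TGEMs, 18 genes were lower and 0 higher, beside 1937 and 843 of 10911 genes tested. Scaling the libraries to equal medians gave 26 lower and 3 higher, beside 2483 and 2392 of all 10929 genes, with Psmb6 and Psmd9 joining Psmd8.

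Genes of both rings, both parts of the cap, the activators and the assembly chaperones were lower, in unequal shares, whereas the inhibitor Psmf1 was not past the test (0.25). All 7 tested alpha-ring genes and all 5 activators were lower, as were 4 of 6 ATPases, 9 of 14 non-ATPases, 3 of 7 beta-ring genes and 2 of 4 assembly chaperones. The median log2 fold change was -1.46 in the alpha ring, -1.28 among ATPases, -1.14 among activators, -1.02 among non-ATPases, -0.98 among assembly chaperones and -0.56 in the beta ring. Summed by class, the median TGEM library was below the median iBMDM library by a factor of 2.92 for the alpha ring, 2.33 for the ATPases and 1.52 for the beta ring. This factor was 2.64 for the assembly chaperones and 2.52 for the activators. It was 1.36 for the non-ATPases and 0.944 for the inhibitor Psmf1, and in both of these classes the ranges of TGEM and iBMDM libraries overlapped.

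Psma5, an alpha-ring subunit, had 24.1 and 30.5 RPKM in Scramble, 19.8 to 33.4 RPKM in the 6 knockout libraries and 1.77, 2.79, 4.29, 4.33 and 5.74 RPKM in the 5 TGEM libraries. All TGEM libraries were below all iBMDM libraries, and the fitted log2 fold change was -2.35 ± 0.33 (SE; adjusted p = 0.00024 by limma-trend). The fit draws on all 5 TGEM libraries through KLA and strain, and it gave -3.09 for Psma5 without the C57Bl/6EiJ vehicle library and -2.06 without the C57Bl/6EiJ KLA or the Balb/cJ vehicle library. Psma6, another subunit of that ring, had 192 and 180 RPKM in Scramble and 43.8 to 56.6 RPKM in the TGEMs (log2 fold change -1.94 ± 0.23, limma-trend adjusted p = 9.19e-05). Psmd11, a scaffold subunit of the lid, fell from 54.3 and 59.2 RPKM to 15.9 RPKM in the C57Bl/6EiJ vehicle library, and the other TGEMs had 9.63 to 18.3 RPKM (-2.08 ± 0.29, limma-trend adjusted p = 0.000224; -2.84 without the C57Bl/6EiJ vehicle library). Psmg2, which helps to assemble the alpha ring, had 19.2 and 24.5 RPKM in Scramble and 4.92 to 7.84 RPKM in TGEMs (-1.90 ± 0.31, limma-trend adjusted p = 0.000662). Psme2, a subunit of the PA28 activator, had the lowest fold change of all, -3.74 ± 0.55 (limma-trend adjusted p = 0.000344). This value was -5.54 without the C57Bl/6EiJ vehicle library and -3.02 without the C57Bl/6EiJ KLA or the Balb/cJ vehicle library, and Psme2 is described with its copy further on. Psma5 and Psmd11 also have near-identical copies elsewhere in the genome (98.6% and 98.1% identity over most of the transcript), so part of their reads may have been placed there or left out.

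Psmd8 went the other way. It had 221 and 156 RPKM in Scramble, 121 to 227 RPKM in the knockout libraries and 316, 365, 389, 394 and 439 RPKM in the TGEMs, with every TGEM library above every iBMDM library (log2 fold change 1.08 ± 0.25, limma-trend adjusted p = 0.00533). It was not past the test when the C57Bl/6EiJ vehicle library was left out (0.67). Without Psmd8 the summed non-ATPase level was 677 to 837.7 RPKM in iBMDMs and 318.7 to 400.0 RPKM in TGEMs, and these ranges did not overlap. Psmd8 was left out because its values had been seen, so this gap is a description and no test.

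Of the catalytic subunits, 1 of 3 was past the test, and differences between them were not tested. Psmb7, the trypsin-like subunit, had 108 and 122 RPKM in Scramble and 37.8 to 58.8 RPKM in TGEMs and was lower (-1.01 ± 0.24, limma-trend adjusted p = 0.00646), but was not past the test without the C57Bl/6EiJ vehicle library (-1.14). Psmb6, the caspase-like subunit, had 134 and 89.8 RPKM in Scramble and 89.7 to 224 RPKM in TGEMs (0.67 ± 0.33, limma-trend adjusted p = 0.125), and it was past the test as higher with equal library medians and without the Balb/cJ vehicle or the C57Bl/6EiJ KLA library (1.02 in both), but had a value of -0.22 without the C57Bl/6EiJ vehicle library. Psmb5, the chymotrypsin-like subunit, had 71.8 and 106.6 RPKM in Scramble and 13.5 to 61.5 RPKM in TGEMs (-0.47 ± 0.32, limma-trend adjusted p = 0.249). All its TGEM values were below both Scramble values, the log2 fold change ran from -0.75 to -0.19 with 1 library left out, and after the GC correction described below it was past the test as lower (-1.09).

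Over all 5 TGEM and 8 iBMDM libraries, without a model, 24 of the 45 genes (53.3%) were lower in every TGEM library than in every iBMDM library, against 24.0% of all tested genes. The reverse held for Psmd8 (2.22%), against 7.71% of all genes. Cell origin, immortalisation, label date, preparation and the sex of the donors cannot be told apart in this comparison. In bulk RNA a lower level per cell and fewer cells of a type cannot be told apart either. Markers of other cell types were higher in the TGEM libraries. The summed level of 4 B cell markers was 10.1 to 23.9 RPKM in TGEMs against 0 to 0.488 in iBMDMs, with Cd79b at 0 in all iBMDMs, that of 3 fibroblast markers 27.7 to 62.3 against 0 to 0.417 RPKM, with Col1a1 at 0 in all iBMDMs, and that of 3 mesothelial markers 3.38 to 5.71 RPKM against 0 for all 3. Summed levels in TGEMs and iBMDMs were 0 to 0.519 and 0 to 0.724 RPKM for T and NK cell markers, 0.794 to 13.2 and 0 to 41.1 for neutrophil, 0.673 to 4.06 and 0 to 1.29 for eosinophil and 0.593 to 9.72 and 0 to 0.549 for mast cell markers. The macrophage markers summed to 7800 to 10800 RPKM in TGEMs and 16900 to 33000 RPKM in iBMDMs. Most of this sum was Lyz2 (5321 to 7145 and 14815 to 30398 RPKM). Adgre1, Itgam, Csf1r and Fcgr1 were also lower in every TGEM library than in every iBMDM library. Cd68 went the other way (1404 to 4050 and 353 to 705 RPKM), and the ranges of Cd14 and Mertk overlapped. Their part in the result was not tested.

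**Figure D2:**
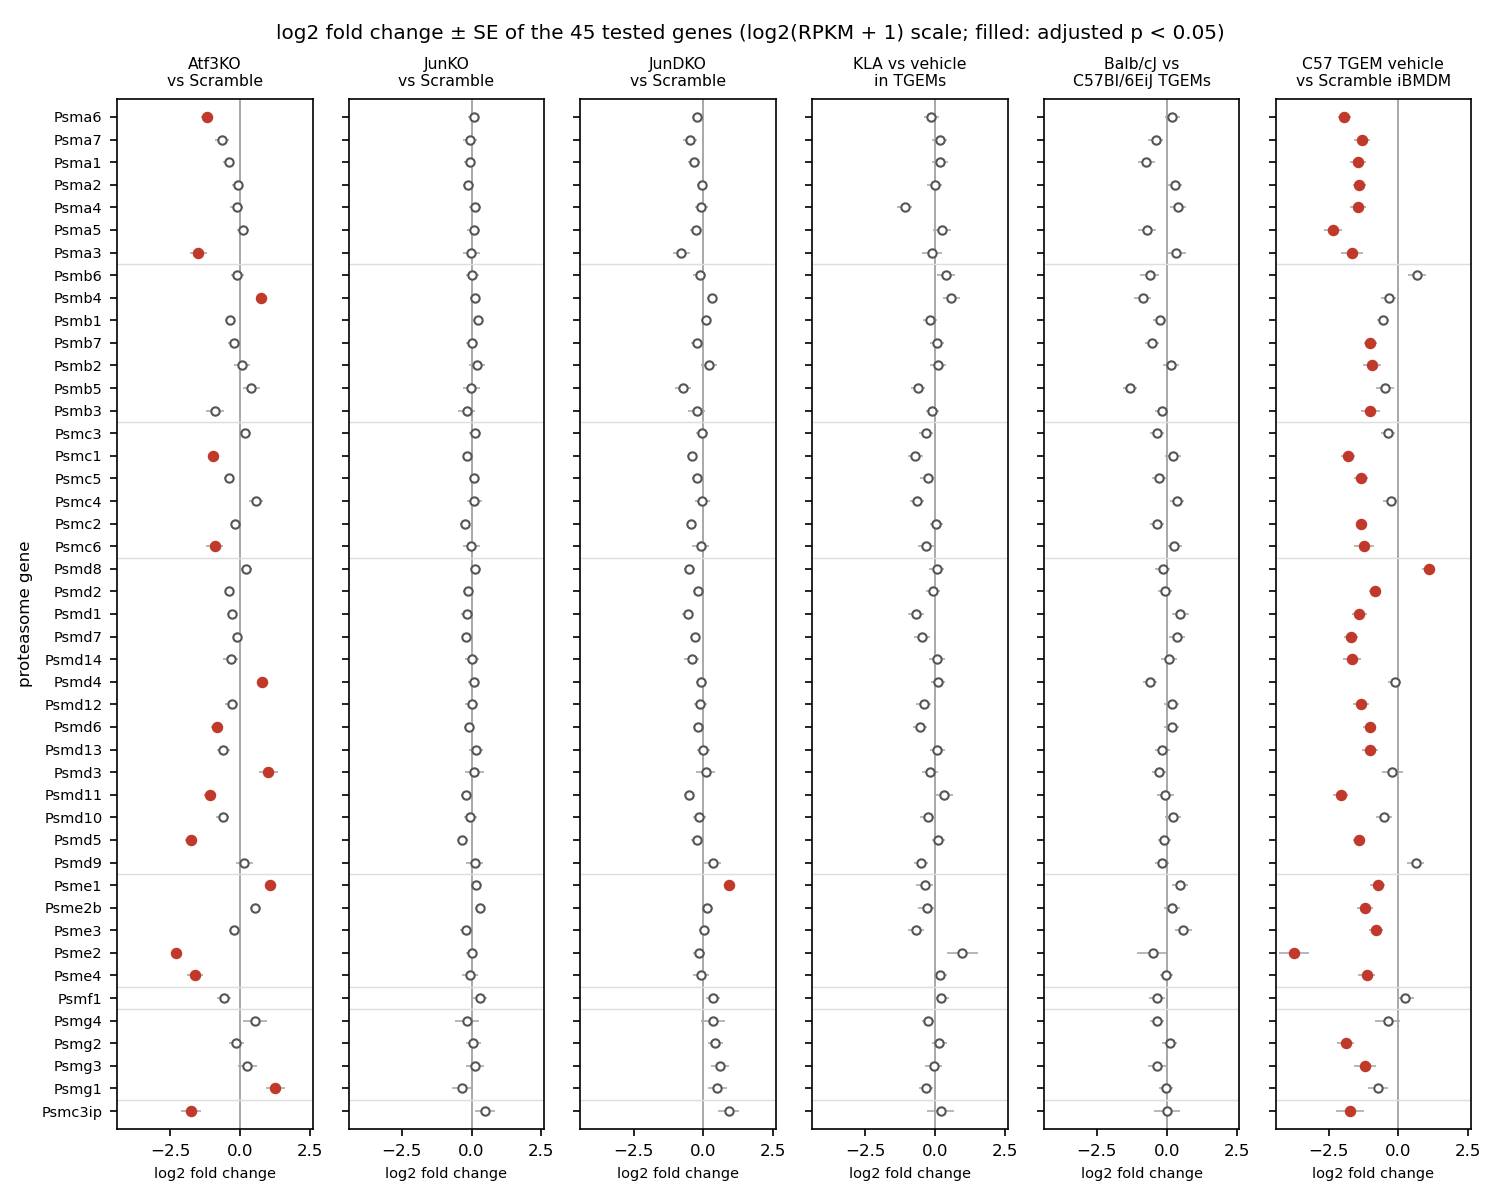
log2 fold change (log2(RPKM + 1) scale, horizontal axis) with its SE for the 45 tested genes, ordered by class and level, in 6 comparisons; filled points are past an adjusted p of 0.05 (limma-trend). Filled points are 31 lower and 1 higher in the last column, 10 lower and 5 higher for Atf3KO, 1 higher for JunDKO and 0 in the other 3.

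The knockout comparisons ask which genes depend on a given AP-1 family member in iBMDMs. In the libraries labelled Atf3KO, 10 of the 45 proteasome genes were lower than in Scramble and 5 were higher (limma-trend adjusted p under 0.05). This is 22.2% lower and 11.1% higher, while 20.6% of all tested genes were lower and 20.7% higher. In this fit the share lower was near that of all genes, and the share higher below it. Under the 2-fold and 16 RPKM limits 5 genes (11.1%) were lower and 3 (6.67%) higher, against 4.69% and 7.84% of all genes. The median log2 fold change was -0.21 for the proteasome genes and 0.05 for all genes. Scaling the libraries to equal medians gave 16 lower and 4 higher, beside 2565 and 1855 of all 10691 genes, and quantile normalization 16 and 4, beside 2135 and 1924, so the share lower was above that of all genes under these settings.

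The genes that were lower belong to the alpha ring (Psma3, Psma6), the ATPases (Psmc1, Psmc6), the non-ATPases (Psmd5, Psmd6, Psmd11) and the activators (Psme2, Psme4), with Psmc3ip. Psmd5, an assembly chaperone of the 19S base, had 26.3 and 34.8 RPKM in Scramble and 8.18 and 8.31 RPKM in Atf3KO (log2 fold change -1.76 ± 0.19, limma-trend adjusted p = 0.000709). The 4 JunKO and JunDKO libraries had 23.7 to 26.5 RPKM, so both Atf3KO libraries lay below every other iBMDM library. Psme4, the activator PA200, had 21.3 and 23.8 RPKM in Scramble and 9.32 and 4.76 RPKM in Atf3KO (-1.61 ± 0.28, limma-trend adjusted p = 0.00392). Psma3 had 7.92 and 8.18 RPKM in Scramble and 3.28 and 1.41 RPKM in Atf3KO (-1.50 ± 0.31, limma-trend adjusted p = 0.00721). Psmc3ip had 3.77 and 7.29 RPKM in Scramble and 0.709 and 1.01 RPKM in Atf3KO (-1.76 ± 0.36, limma-trend adjusted p = 0.00722). Psma3 and Psmc3ip were not past the test without Scramble replicate 2 (-1.47 and -1.37), nor was Psmd6. Psmc6 was close to the threshold (limma-trend adjusted p = 0.0493) and was not past it with no filter, a pseudocount of 5, the replicate block or the GC correction, nor without Atf3KO replicate 2 or either Scramble library. Psma6 and Psmd11, already named for their low level in TGEMs, were at 96.9 and 68.3 RPKM and at 29.2 and 23.4 RPKM in Atf3KO, with log2 fold changes of -1.18 ± 0.19 and -1.09 ± 0.18. The TGEM and Atf3KO comparisons share the Scramble libraries.

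The genes that were higher came from the assembly chaperones, the activators, the 19S cap and the beta ring. Psmg1, an alpha-ring assembly chaperone, had 10.1 and 17.4 RPKM in Scramble and 37.0 and 30.3 RPKM in Atf3KO (1.27 ± 0.34, limma-trend adjusted p = 0.019). It was not past the test without Atf3KO replicate 1 (1.13), Atf3KO replicate 2 (1.42) or Scramble replicate 1 (0.91). Psme1, the partner of Psme2 in PA28, had 61.3 and 78.8 RPKM in Scramble and 159 and 140.2 RPKM in Atf3KO (1.09 ± 0.20, limma-trend adjusted p = 0.00501). Psmd3, a lid subunit, had 47.1 and 33.4 RPKM in Scramble and 60.3 and 109 RPKM in Atf3KO (1.01 ± 0.34, limma-trend adjusted p = 0.0431). This call held in 5 of 13 alternatives, and was lost with no filter, equal library medians, quantile normalization, the replicate block, the GC correction, and without Atf3KO replicate 2 (0.59), Scramble replicate 1 (1.25) or Scramble replicate 2 (0.77). Psmd4, the ubiquitin receptor also known as Rpn10, and Psmb4 rose by 0.80 ± 0.20 and 0.74 ± 0.18 on the log2 scale (limma-trend adjusted p = 0.0157 and 0.0129), but Psmd4 was not past the test without Scramble replicate 2 (0.60) and Psmb4 not without Scramble replicate 1 (0.61). The catalytic Psmb5, Psmb6 and Psmb7 had log2 fold changes of 0.41 ± 0.29, -0.10 ± 0.23 and -0.20 ± 0.22, none past the test, and that of Psmb5 ran from 0.05 to 0.77 with 1 library left out. With Atf3KO replicate 1 alone, which shares its label date with Scramble, 9 genes were lower and 4 higher, beside 1610 and 1300 of all genes. Without Scramble replicate 2 the counts were 6 lower and 3 higher, beside 1209 and 878 of all genes, and without Scramble replicate 1 they were 9 and 3, beside 1602 and 1541.

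**Figure D3:**
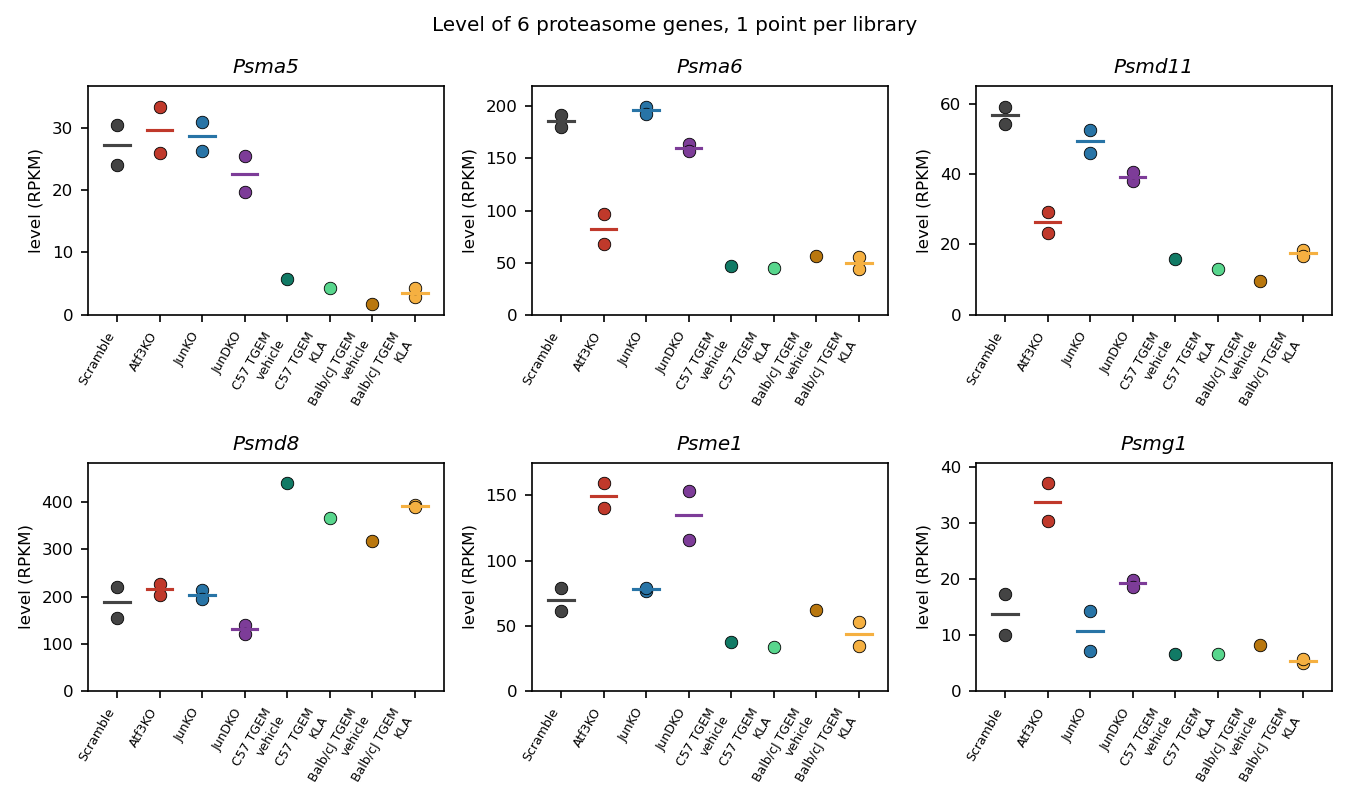
Level (RPKM, vertical axis from 0) of 6 proteasome genes in 13 libraries (points; the line is the mean of groups of 2). Psma5, Psma6 and Psmd11 are lowest in TGEMs and Psmd8 highest there, while Psme1 and Psmg1 are highest in the Atf3KO or JunDKO libraries.

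Base composition moved with this result. Across 10617 tested genes, the log2 fold change of Atf3KO over Scramble correlated with the GC content of the transcript (Spearman's rho = 0.50), and across the 45 proteasome genes rho was 0.57. Genes share their libraries, and these are descriptions. The 5 proteasome genes that were higher had a GC content of 51.5% to 58.3% and the 10 that were lower one of 39.0% to 50.5%. After the GC trend of each library was removed, 14 were lower and 4 higher, beside 2058 and 2324 of all genes, and the median log2 fold change was -0.07. Psme1, Psmg1, Psmd5, Psma6 and Psmd11 were past the test in the same direction as before, whereas Psmd3 (0.32), Psmd4 (0.40), Psmb4 (0.41) and Psmc6 were not past it. Psma4 and Psme2b were now past it as higher, and Psma7, Psmb3, Psmc5, Psmd2 and Psmd13 as lower. In the TGEM comparison rho was 0.41 over 10848 genes and 0.56 over the 45, the genes lower had a median GC content of 48.7% and the others 53.5%, and 34 genes were lower and 1 higher after the GC correction, beside 3107 and 1608 of all genes.

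**Figure D4:**
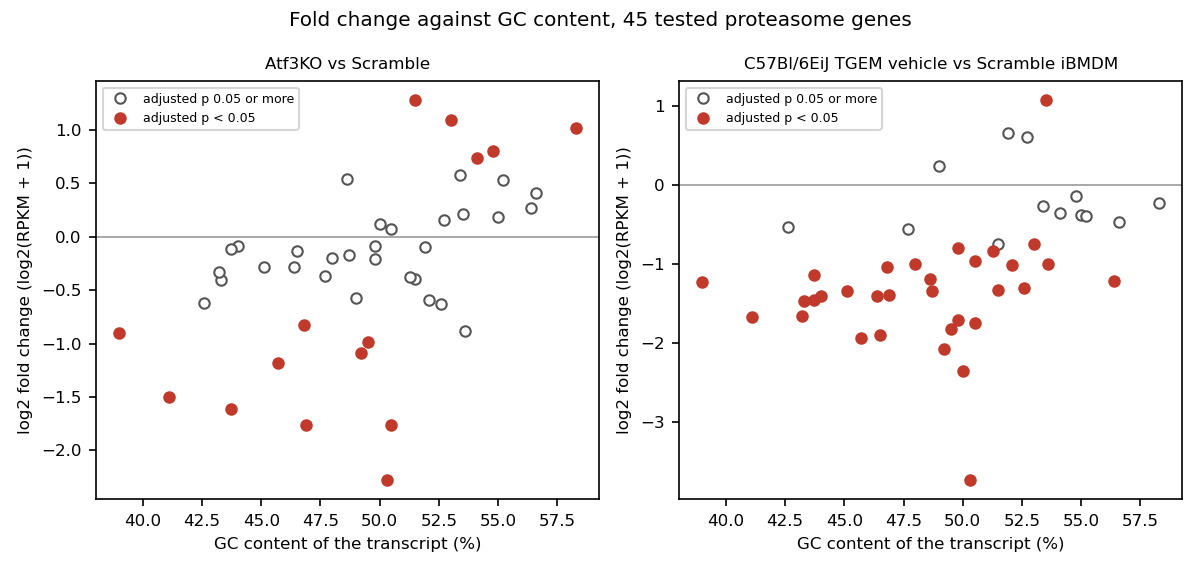
log2 fold change (log2(RPKM + 1) scale, vertical axis) against GC content of the transcript (percent, horizontal axis) for the 45 tested genes; filled points are past an adjusted p of 0.05. In Atf3KO the 5 genes that were higher lie at 51.5% GC or more and the 10 that were lower at 50.5% or less.

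The near-identical pair Psme2 and Psme2b, of which a coding stretch is shown above, diverged in Atf3KO while their sum was not past the test. Psme2 had 83.3 and 78.3 RPKM in Scramble and 18.3 and 13.7 RPKM in Atf3KO (log2 fold change -2.28 ± 0.20, limma-trend adjusted p = 0.000323). Psme2b had 103 and 77.5 RPKM in Scramble and 146 and 117.2 RPKM in Atf3KO (0.54 ± 0.20, limma-trend adjusted p = 0.0547). Psme2 thus held 37.5% and 42.9% of the pair's reads in Scramble, 32.4% to 38.3% in JunKO and JunDKO, and 8.53% and 8.01% in Atf3KO. Counted together, the pair had 189 and 156 RPKM in Scramble and 183 and 146 RPKM in Atf3KO (-0.07 ± 0.18, limma-trend adjusted p = 0.782; counting them together was chosen after seeing the data). In TGEMs the sum was also lower, at 35.8 to 62.3 RPKM (-1.79 ± 0.29 for the C57Bl/6EiJ vehicle contrast, limma-trend adjusted p = 0.000713), with Psme2 at 3.12% to 18.8% of the pair's reads. The lower Psme2 value in Atf3KO thus had no counterpart in the sum, while the lower value in TGEMs did. Why the split of the reads differed was not tested.

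**Figure D5:**
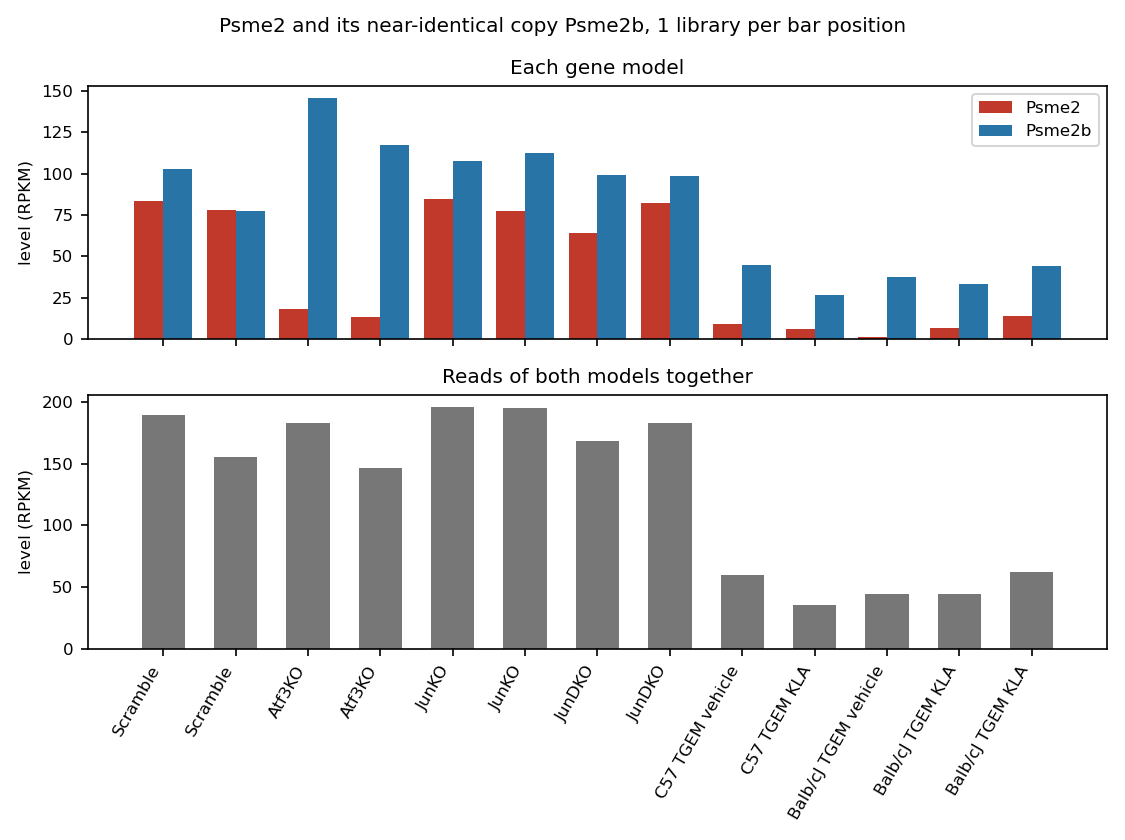
Level (RPKM, vertical axes from 0) of Psme2 and Psme2b in 13 libraries, each model by itself (upper panel) and with the reads of both together (lower panel). In Atf3KO Psme2 is at 18.3 and 13.7 RPKM, while the sum is 183 and 146 RPKM there and 156 to 196 RPKM in the other iBMDM libraries.

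In JunKO no proteasome gene was past the test (0 of 45 higher and 0 lower), where 0.159% of all genes were higher and 0.122% lower. At an unadjusted p under 0.05 there were also 0 of the 45 by limma-trend, against 842 of 10691 genes. limma-voom on the recovered reads also called 0. The median log2 fold change was 0.01, as it was for all genes (0.01), and the log2 fold changes of the 45 genes ran from -0.35 (Psmg1) to 0.48 (Psmc3ip). Those of the catalytic Psmb5, Psmb6 and Psmb7 were -0.01 ± 0.29, 0.02 ± 0.23 and 0.02 ± 0.22.

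In JunDKO, Psme1 was higher (2.22%) and 0 genes were lower, against 6.93% of all genes higher and 4.82% lower. Psme1 had 116 and 153 RPKM in JunDKO against 61.3 and 78.8 in Scramble (0.93 ± 0.20, limma-trend adjusted p = 0.0231), and JunKO had 76.7 and 79.3 RPKM. All JunDKO and Atf3KO libraries were above all Scramble and JunKO libraries for Psme1. JunDKO and Atf3KO differed by -0.16 ± 0.20 (limma-trend adjusted p = 0.55), and JunDKO and JunKO by 0.77 ± 0.20 (limma-trend adjusted p = 0.0579). It was not past the test when any 1 of the Scramble or JunDKO libraries was left out, with log2 fold changes of 0.73 to 1.13 in these fits. The median of all genes was raised by 0.24 in this comparison (log2), while the median of the proteasome genes was -0.11. With equal library medians Psme1 was not past the test and 4 genes were lower (Psmc2, Psmd1, Psmd8 and Psmd11), and with the GC correction 4 were lower (Psma3, Psmc2, Psmd1 and Psmd11), beside 772 and 774 of all 10691 genes. Psmb5 had 44.6 and 61.5 RPKM in JunDKO against 71.8 and 106.6 in Scramble (-0.73 ± 0.29, limma-trend adjusted p = 0.153; -1.01 to -0.45 with 1 library left out). Psmb6 and Psmb7 had log2 fold changes of -0.13 ± 0.23 and -0.24 ± 0.22.

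One hour of KLA left the proteasome genes without a change past the test. Of the 45, 0 were higher and 0 lower in KLA against vehicle TGEMs with strain as a covariate, where 1.29% of all genes were higher and 0.232% lower (limma-trend), and limma-voom on recovered reads also gave 0. At an unadjusted p under 0.05, 4 were lower and 0 higher, beside 1553 of 10357 genes in either direction. The median was -0.10, beside -0.15 for all genes. The lowest value was that of Psma4, with 37.8 RPKM in Balb/cJ vehicle, 18.1 and 12.5 in Balb/cJ KLA, 23.8 in C57Bl/6EiJ vehicle and 12.7 in C57Bl/6EiJ KLA (log2 fold change -1.09 ± 0.28, limma-trend adjusted p = 0.15). Both strains had the lower value with KLA. Psma4 has a near-identical copy on chromosome 18 (97.4% identity over 99.9% of the transcript), so part of its reads may have been placed there or left out. The highest was that of Psme2, with 1.63 RPKM in Balb/cJ vehicle, 7.03 and 13.8 in Balb/cJ KLA, 9.06 in C57Bl/6EiJ vehicle and 6.27 in C57Bl/6EiJ KLA (0.97 ± 0.56, limma-trend adjusted p = 0.445). It was higher with KLA in Balb/cJ and lower in C57Bl/6EiJ, and its interaction of KLA and strain had a limma-trend adjusted p of 0.53 (unadjusted p = 0.017). Within the label dates, with 1 library against 1 and no test, the median log2 difference of the 45 genes was -0.02 in Balb/cJ and -0.20 in C57Bl/6EiJ. The medians of all genes were -0.01 and -0.18. None of the 45 proteasome genes moved by 2-fold in the same direction in both strains, and this was not counted over all genes. Psmb6 differed by 0.96 in Balb/cJ and by -0.32 in C57Bl/6EiJ on the log2 scale. In the fit over both strains Psmb5, Psmb6 and Psmb7 had log2 fold changes of -0.62 ± 0.26, 0.39 ± 0.34 and 0.08 ± 0.25. The interaction of KLA and strain was past the test for 0 proteasome genes and for 0 of 10357 genes by limma-trend (835 at an unadjusted p under 0.05), with 1 residual degree of freedom.

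Between Balb/cJ and C57Bl/6EiJ TGEMs, again 0 of the 45 were higher and 0 lower by limma-trend, against 0.859% and 1.45% of all genes. At an unadjusted p under 0.05, 3 were lower and 0 higher, beside 2213 of 10357 genes in either direction. Psmb5 came closest, with 41.5 and 61.5 RPKM in the C57Bl/6EiJ libraries and 13.5, 17.8 and 25.1 RPKM in the Balb/cJ libraries. The groups did not overlap (log2 fold change -1.32 ± 0.26, limma-trend adjusted p = 0.0507), and with limma-voom, equal library medians or quantile normalization Psmb5 was past the test. In this comparison the fold change also moved with GC content (Spearman's rho = -0.45 over 10286 genes and -0.47 over the 45), Psmb5 has a GC content of 56.6%, and with the GC correction its value was -1.05 and not past the test. Psmb5 has a copy on chromosome 7 of 99.0% identity, and the Balb/cJ reads were aligned to a genome of that strain, so where reads were placed and how high the level was cannot be told apart. Psmb6 and Psmb7 had log2 fold changes of -0.60 ± 0.34 and -0.52 ± 0.25, and that of Psmb6 ran from -1.31 without the C57Bl/6EiJ KLA library to -0.07 without either vehicle library.

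The immunoproteasome subunits, which replace the catalytic subunits of the core, were not past the test in any of these comparisons (0 of 3 by limma-trend in each). Psmb8 had 61.1 to 81.9 RPKM in Scramble and 22.1 to 62.4 in TGEMs, Psmb9 had 6.59 to 22.7 and 11.2 to 29.3 RPKM, and Psmb10 had 19.9 to 27.6 and 18.0 to 36.9 RPKM. The ranges of the 2 kinds of cell overlapped for all 3. In Atf3KO, Psmb10 had 33.4 and 62.6 RPKM (0.94 ± 0.34, limma-trend adjusted p = 0.0543).

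Other genes of the ubiquitin-proteasome system were taken from a list of 30, of which 29 are in the table. In the TGEM comparison 10 of 29 were lower and 2 higher, with a median log2 fold change of -0.50, where 30.2% of all tested genes were lower and 16.1% higher and their median was -0.28. Usp14, a deubiquitinase of the 19S cap, had 52.8 and 73.5 RPKM in Scramble and 11.7 to 16.1 RPKM in TGEMs (-2.14 ± 0.35, limma-trend adjusted p = 0.000716), and Shfm1, the small lid subunit also called Sem1, had 447 and 341 RPKM in Scramble and 91.1 to 228 RPKM in TGEMs (-1.38 ± 0.22, limma-trend adjusted p = 0.000676). Zfand2a and Zfand5, which encode zinc-finger proteins linked to the proteasome under stress, were the genes higher (1.57 ± 0.24 and 1.21 ± 0.24). Nfe2l1, the transcription factor known to drive proteasome genes when proteasome activity is short, had 54.8 and 54.7 RPKM in Scramble and 27.1 to 59.6 RPKM in TGEMs (0.11 ± 0.25, limma-trend adjusted p = 0.753), and Pomp, which matures the core, had -0.35 ± 0.21 (limma-trend adjusted p = 0.206). The ubiquitin receptor Adrm1 had -0.08 ± 0.48.

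In Atf3KO 5 of 29 were higher and 5 lower, where 20.7% of all tested genes were higher and 20.6% lower. Ngly1, the deglycosylase that processes Nfe2l1 protein, had 0 and 1 reads in the Atf3KO libraries against 47 and 38 in Scramble, which at equal depth is 0.00368 times the Scramble number (exact 95% interval from 9.22e-05 to 0.0211, counting error only). The other 4 iBMDM knockout libraries had 26 to 609 reads of Ngly1, so the Atf3KO libraries stood apart. Nfe2l1 itself had 82.6 and 90.5 RPKM in Atf3KO and was higher (0.65 ± 0.18, limma-trend adjusted p = 0.02), as was Adrm1 (0.89 ± 0.28, limma-trend adjusted p = 0.0348). Shfm1 was lower (-1.34 ± 0.19, limma-trend adjusted p = 0.00186), and Pomp was not past the test (-0.23 ± 0.18). In JunKO and with KLA 0 of the list were past the test by limma-trend. In JunDKO Vcp, an unfoldase that delivers proteins to the proteasome, was lower.

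Upstream sequences were examined because AP-1 factors bind DNA and because 31 proteasome genes were lower together in TGEMs. RefSeq promoter sequences (GRCm38.p6) were at hand for 39 of the 47 genes, 27 of them among the 31 lower in TGEMs, and the 250 bases before each start were searched on both strands. The AP-1 motif TGANTCA was found for 1 of the 39 genes (2.56%), Psmd9, and for 7.82% of all 27025 genes. The related TGACGTCA was found for 0 of the 39 and for 1.77% of all. TGACNNNGC, the core of the element that Nfe2l1 and Nfe2l2 are known to bind, was found for 5 of the 39 (12.8%), among them the catalytic Psmb5 and Psmb6, and for 11.5% of all. CCGGAAG, the core that ETS factors are known to bind, was found for 13 of the 39 (33.3%) and for 7.83% of all genes. CCAAT was found for 14 of the 39 (35.9%) and for 37.5% of all. Among the genes lower in TGEMs were 11 of the 13 with CCGGAAG and 11 of the 14 with CCAAT. The same held for 2 of the 5 with TGACNNNGC, 0 of the 1 with TGANTCA and 27 of all 39. The 27025 genes were counted whether or not they were tested for their level. A link between a motif and the level in TGEMs was not tested.
Stretches around a match are shown for genes lower in TGEMs that carry the ETS core, for the catalytic genes with the Nfe2l1 element and for the gene with the AP-1 motif, with the motif in capitals.
Psma6, chr12:55398653-55398739, plus strand, CCGGAAG: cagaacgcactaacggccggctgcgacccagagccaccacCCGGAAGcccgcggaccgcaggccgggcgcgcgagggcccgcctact
Psmd11, chr11:80428564-80428614, plus strand, CCGGAAG in reverse: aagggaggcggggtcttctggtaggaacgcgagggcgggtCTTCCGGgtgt
Psme4, chr11:30771682-30771768, plus strand, CCGGAAG: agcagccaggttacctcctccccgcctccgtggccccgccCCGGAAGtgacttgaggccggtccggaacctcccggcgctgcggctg
Psmd12, chr11:107479471-107479527, plus strand, CCGGAAG in reverse: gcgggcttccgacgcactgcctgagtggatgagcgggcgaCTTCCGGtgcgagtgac
Psmb5, chr14:54617996-54618082, minus strand, TGACNNNGC: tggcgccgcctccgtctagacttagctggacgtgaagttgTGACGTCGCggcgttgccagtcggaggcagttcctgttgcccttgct
Psmb6, chr11:70525308-70525356, plus strand, TGACNNNGC: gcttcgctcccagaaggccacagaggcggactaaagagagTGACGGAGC
Psmd9, chr5:123228024-123228110, plus strand, TGANTCA: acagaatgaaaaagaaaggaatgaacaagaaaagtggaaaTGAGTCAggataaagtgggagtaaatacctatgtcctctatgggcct
The motif lies 4 bases before the start in Psmd11, 10 in Psmd12, 46 in Psme4 and 125 in Psma6, and in Psmb6 it ends at the start itself. Psmd9 carries the motif by which AP-1 is known, and its level was 6.42 and 6.56 RPKM in Scramble. Atf3KO libraries had 5.64 and 9.52 RPKM and JunKO libraries 9.08 and 5.42 RPKM, both overlapping Scramble, and JunDKO libraries had 9.22 and 7.77 RPKM, above it. It was past the test in 0 of the 6 comparisons (limma-trend). A match is a description of letters and not of binding.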

How the data were processed

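Per the file headers the authors deposited RPKM over exons (HOMER, genes condensed) for 13 polyA libraries, after alignment with STAR to mm10 (Balb/cJ libraries to a strain-specific version of it). Versions and whether counting used strand are not given in the sources used here. GRO-seq (4 samples) was not analysed here. RPKM move in steps of 1 read, which gave depth and whole reads. Of values up to 50 reads, 100% lay within 0.05 of a whole number or the rounding of RPKM.

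Gene models averaging 1 RPKM or more across the libraries of a fit were tested on log2(RPKM + 1) with limma-trend (limma 3.58.1, R 4.3.3), over 8 iBMDM libraries (4 groups), 5 TGEM libraries (KLA and strain) or all 13. Fold changes on this scale understate changes of genes with low values. P-values were adjusted by Benjamini-Hochberg over all tested genes. Gene lists and members were chosen with earlier results of these data known. The genes named are, in each comparison, the 5 largest rises and 5 largest falls past the test, with Psmb5 to Psmb7, the highest and lowest of each class, genes under 1 RPKM, the immunoproteasome genes, Nfe2l1, Pomp, Adrm1, Shfm1 and up to 2 other listed genes per direction. Psma4 and Psme2 with KLA, Psmc6 and Psmd6, Psme2b, Psma6 and Psmd11 in Atf3KO and Psmd9 beside its promoter were chosen after their values were seen. So was the non-ATPase sum without Psmd8. Alternatives were another pseudocount (5), no filter, equal library medians, quantile normalization, GC correction, limma-voom on recovered reads, a replicate block and leaving out each library. GC content came from RefSeq transcripts (98.8% of models). Copies were searched with minimap2 2.31 at 95% identity or more over at least 50% of the transcript. Of the 47 genes, 8 had one (Psma4, Psma5, Psmb3, Psmb5, Psmd2, Psmd11, Psme2 and Psme2b). Fits were also run on simulated data, and the outcome of these runs is not given here. Results of some listed genes that are not proteasome genes are not reported here.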

Additional observations from a re-analysis of the deposited data

How the results depend on the processing

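The number of proteasome genes lower in TGEMs (31) was 18 to 31 with 1 library left out and 25 to 34 under the other alternatives, while over all genes the number lower (3300) was 1937 to 3332 with 1 library left out. The number higher (1) was 0 to 2 with 1 library left out (0 without the C57Bl/6EiJ vehicle library), 2 without a filter, 3 with equal library medians and 2 with quantile normalization. In Atf3KO the number lower (10) was 16 with equal library medians, 16 with quantile normalization, 5 under the 2-fold and 16 RPKM limits and 6 to 12 with 1 library left out. The number higher (5) was 3 under those limits and 3 to 5 with 1 library left out. In JunDKO the number higher (1) was 0 with equal library medians, 0 under the limits and 0 to 0 with 1 library left out, and the number lower (0) was 4 with equal library medians, 1 with quantile normalization, 4 with the GC correction and 1 in a fit without the Atf3KO libraries, which was chosen after seeing the data. Between strains the number lower (0) was 1 (Psmb5) with equal library medians, 1 with quantile normalization and 1 with limma-voom. For these the cause was not tested. Over all genes, limma-voom on recovered reads called 2178 higher and 2458 lower in Atf3KO (limma-trend 2209 and 2200), 8 and 14 in JunKO (17 and 13), 725 and 620 in JunDKO (741 and 515), 169 and 143 with KLA (134 and 24), 255 and 381 between strains (89 and 150) and 1624 and 3365 in TGEMs (1755 and 3300).

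The sign of a catalytic gene turned in these cases. Psmb5 had -0.131 in Atf3KO with the GC correction and 0.00464 in JunKO with limma-voom, and leaving out 1 library gave -0.288 to 0.276 in JunKO. In JunKO Psmb6 had -0.0124 with equal medians and -0.0199 with quantile normalization, and Psmb7 -0.0117 and -0.00336. With 1 library left out, Psmb6 ran from -0.384 to 0.189 in Atf3KO, -0.417 to 0.156 in JunDKO, -0.269 to 0.304 in JunKO, -0.215 to 1.02 in TGEMs and -0.317 to 0.922 with KLA, and Psmb7 from -0.493 to 0.0149 in JunDKO, -0.0752 to 0.112 in JunKO and -0.0269 to 0.155 with KLA. In the reported fits these genes were not past the test in these comparisons. Of 454 values of named genes under alternatives, 403 had the same direction and side of the threshold.

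The replicate numbers were not taken as pairs, since not every correlation of replicate differences between groups was over 0.1. It was 0.18 to 0.22 among Scramble, JunKO and JunDKO, which share a label date, and -0.21 to -0.12 between Atf3KO, whose replicate 2 has another date, and each of these. With a replicate block 10 genes were lower and 4 higher in Atf3KO (Psmd3 and Psmc6 were lost and Psmd13 was gained), and with crossed numbers, chosen after seeing the data, 15 and 7, beside 2631 and 2858 of all genes (2200 and 2209 without a block). In JunKO (0 and 0) and JunDKO (0 lower and 1 higher) the block left the counts of proteasome genes as they were, while the calls over all genes went from 17 higher and 13 lower to 8 and 6 in JunKO and from 741 and 515 to 581 and 460 in JunDKO. Depth of 1553297 reads limits the shallowest library, in which genes of few RPKM rest on few reads.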
